A study of Mus musculus with 2 samples.

Results

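The H19-Igf2 imprinted domain of the mouse was described by its CTCF peaks. The domain was taken as H19, Igf2 and Ins2 with 20 kb added on each side, which on build mm10 is chr7:142555529-142763381, or 207853 bp. Its members were all peaks of the deposited optimal list whose summit, the base of highest enrichment, lay in that span. There were 14 of them, of 68603 optimal peaks in all, and they are numbered 1 to 14 in order of distance from the H19 start. No CTCF signal was used as a rule to choose the span or the genes, though earlier results of these data were known when they were chosen. CTCF was measured by ChIP-seq (sequencing of the DNA recovered with an antibody to CTCF) in the midbrain of newborn B6NCrl mice, postnatal day 0, as 1 group of 2 replicates. Sex was not collected, and the replicates shared 1 biosample and 1 donor record, so their spread may be no more than technical. There was no second condition, and the values below are descriptions with no test.

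CTCF recognises DNA through a row of zinc fingers, reads its motif in 1 orientation, and can act as an insulator between enhancers and promoters. H19 is a long noncoding RNA, host of the microRNA Mir675, made from the maternal chromosome. Igf2 encodes a fetal growth factor and is expressed mainly from the paternal chromosome in most tissues. In brain, Igf2 is known to be expressed chiefly in the choroid plexus and meninges, where both parental copies are active. Ins2 encodes an insulin and lies next to Igf2. The imprinting control region between H19 and Igf2 is methylated on the paternal chromosome, and CTCF is known to bind its unmethylated maternal copy, where it keeps enhancers beyond H19 from reaching Igf2. Mice of 1 inbred strain give no sequence differences to tell the parental alleles apart, and in bulk tissue the share of cells or alleles bound and the binding per cell cannot be told apart either.

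The control region held 4 optimal peaks, 1 at each of the 4 CTCF sites that RefSeq annotates there, called m4, m3, m2 and m1 in order from H19. Their sequences are shown first because these are the elements the domain is known for. They were read from GRCm38.p6, the same build as mm10, on the minus strand, which is the strand of H19 and Igf2, 5′ to 3′. Capitals mark the best-scoring 20 bp word of a CTCF weight matrix within 50 bp of the peak's summit. Site m4 is at chr7:142580301-142580347, m3 at chr7:142580756-142580803, m2 at chr7:142581782-142581826 and m1 at chr7:142582026-142582073. All 4 lie in sequence that is intergenic in GENCODE vM21.
m4: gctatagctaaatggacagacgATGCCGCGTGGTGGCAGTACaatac
m3: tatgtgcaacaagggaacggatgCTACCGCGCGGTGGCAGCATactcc
m2: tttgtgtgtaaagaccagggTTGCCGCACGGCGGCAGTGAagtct
m1: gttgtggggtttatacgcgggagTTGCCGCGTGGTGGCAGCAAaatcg

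The 4 words lay on the same strand and were alike. At 12 of their 20 positions all 4 had the same base. Pairs of sites shared between 13 of 20 bases, for m2 with m3, and 17 of 20 bases, for m1 with m4. The word centres were 455 bp apart between m4 and m3, 1026 bp between m3 and m2, and 244 bp between m2 and m1, so the sites form a pair near H19 and a pair farther from it. These pairs fall in the DNase hypersensitive fragments that RefSeq annotates as HS2 and HS1, each of which held 2 optimal peaks.

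Every word held CpG, the dinucleotide that DNA methylation acts on. There were 2 CpG in the words of m4 and m1 and 3 in those of m3 and m2. Counted from 1 at the 5′ end of the word, a CpG began at position 5 in all 4 sites, at position 7 in m4, m3 and m1, at position 9 in m3 and m2, and at position 12 in m2. None of these words reached the motif threshold used here, a per-position p of 1e-05 or a score of 12.75 bits. They scored 10.07 bits at m4, 11.62 at m3, 8.63 at m2 and 11.96 at m1, with per-position p from 1.47e-05 to 6.57e-05. In the series, 14722 peaks had a best word in the range between 1e-05 and 1e-04, and 13.8% of those words held at least 2 CpG, 5.26% at least 3 and 10.4% a CpG at position 5. A window reaching 50 bp to each side of the summit held 7 CpG at m4, 5 at m3, 7 at m2 and 6 at m1, against a median of 1.00 over all optimal peaks, of which 14.7% held 5 or more. Methylation itself was not measured.

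The 2 strongest peaks of the control region are given whole, at m4 (peak 2, chr7:142580202-142580433) and at m3 (peak 3, chr7:142580659-142580877), on the minus strand with the same word in capitals, to show the sequence that the enrichment covered.
peak 2: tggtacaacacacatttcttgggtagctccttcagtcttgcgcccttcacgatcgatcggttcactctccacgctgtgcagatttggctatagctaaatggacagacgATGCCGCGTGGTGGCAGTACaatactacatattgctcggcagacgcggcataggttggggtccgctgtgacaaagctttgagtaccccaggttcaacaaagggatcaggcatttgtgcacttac
peak 3: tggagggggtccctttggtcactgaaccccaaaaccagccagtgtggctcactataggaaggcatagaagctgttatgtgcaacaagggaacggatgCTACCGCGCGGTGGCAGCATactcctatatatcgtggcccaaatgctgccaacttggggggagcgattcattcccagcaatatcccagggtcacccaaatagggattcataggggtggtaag

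Signal is the value the authors' peak caller gave each peak, on a scale that the deposited notes do not state, and is compared within a list. At m4 the signal was 221 in the optimal list, 122 in replicate 1 and 98.6 in replicate 2. At m3 it was 198 in the optimal list, 96.9 in replicate 1 and 99.2 in replicate 2. The order of m4 and m3 thus turned round between the replicates, and these neighbours did not differ beyond the spread. At m2 the optimal signal was 152, with 80.6 in replicate 1 and 69.2 in replicate 2. At m1 it was 106, with 55.3 in replicate 1 and 48.4 in replicate 2. Within each replicate m2 was below both m4 and m3, and m1 was below m2. The 4 peaks were at the 58.8 to 76.3 percentile of signal among optimal peaks, so the sites were of middle to upper strength in this tissue.

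**Figure D1:**
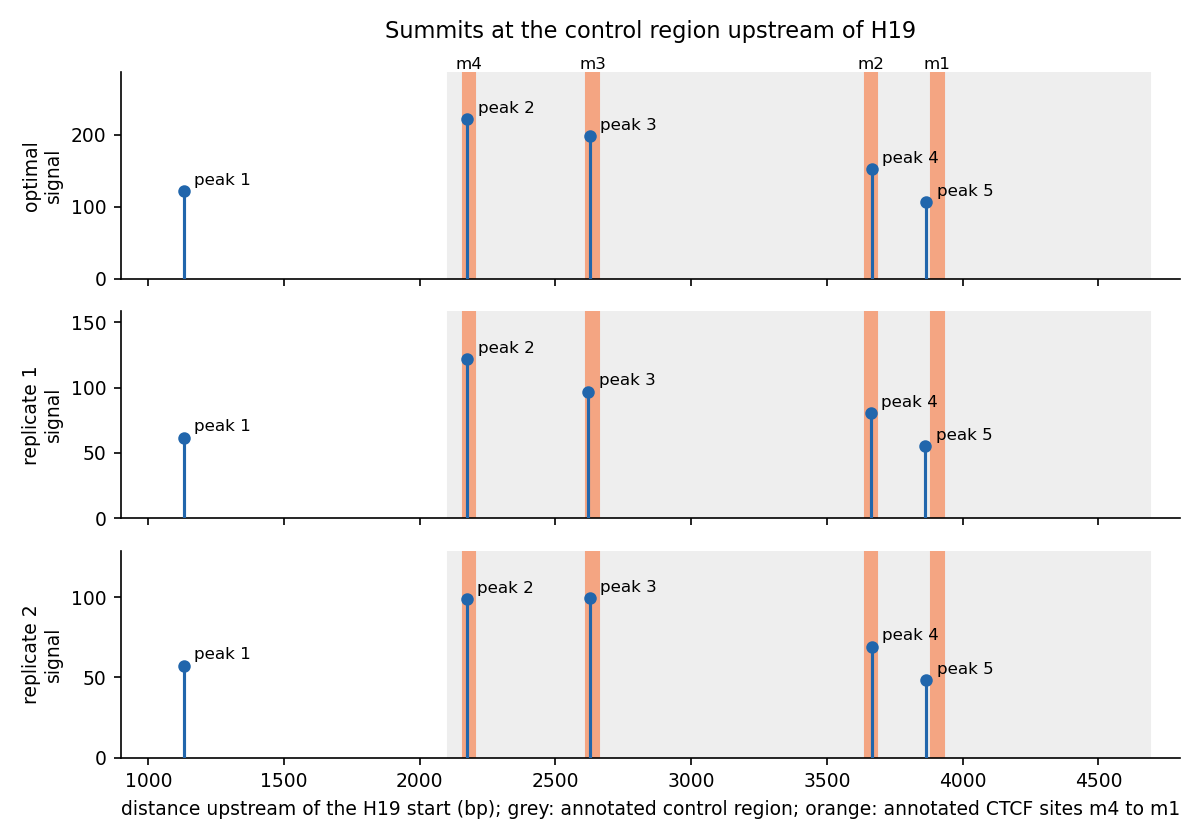
Deposited signal (vertical axis) at each summit against distance upstream of the H19 start in bp, for the optimal list, replicate 1 and replicate 2, with the annotated control region in grey and the annotated CTCF sites m4 to m1 in orange. Peaks 2, 3 and 4 have their summits inside m4, m3 and m2 in all 3 panels, and the summit of peak 5 lies just short of m1.

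At 3 of the 4 sites the summit lay inside the annotated site. The optimal summit was 2.5 bp from the centre of the word at m4, 1.5 bp at m3 and 12.5 bp at m2. At m1 it was at 142582009, which is 17 bp outside the annotated site on the side of m2 and 31.5 bp from the word's centre. Replicate 1 placed that summit 4 bp nearer to m2, and replicate 2 placed it at the same base as the optimal list. Peaks 4 and 5 were the closest pair of the domain, with 200 bp between their summits. Only 1 further optimal peak lay between the H19 start and m4. That was peak 1, with its summit at 142579274, 1131 bp upstream of the H19 start, a signal of 122 in the optimal list, 61.7 in replicate 1 and 57.4 in replicate 2, and a motif match on the minus strand without CpG.

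Across the whole domain the peaks fell into 4 groups, and the strongest lay beyond Igf2 rather than at the control region. Near H19 were peaks 1 to 5. Peak 6 stood by itself, 32607 bp upstream of the H19 start, inside the long noncoding RNA gene Gm33148. Peaks 7, 8 and 9 lay between Igf2 and Ins2, and peaks 10 to 14 lay farther out. The annotated control region of 2586 bp held 4 optimal peaks, the 67932 bp from there to Igf2 held 1, the 16051 bp of Igf2 held none, and the 96565 bp beyond Igf2 held 8. The 20000 bp beyond the 3′ end of H19 and the 2615 bp of H19 itself held none. The widest stretch of the span between neighbouring summits was 60534 bp, from peak 6 to peak 7, with Igf2 in it. Read depth is unknown, so a stretch without a peak is one where none was listed.

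**Figure D2:**
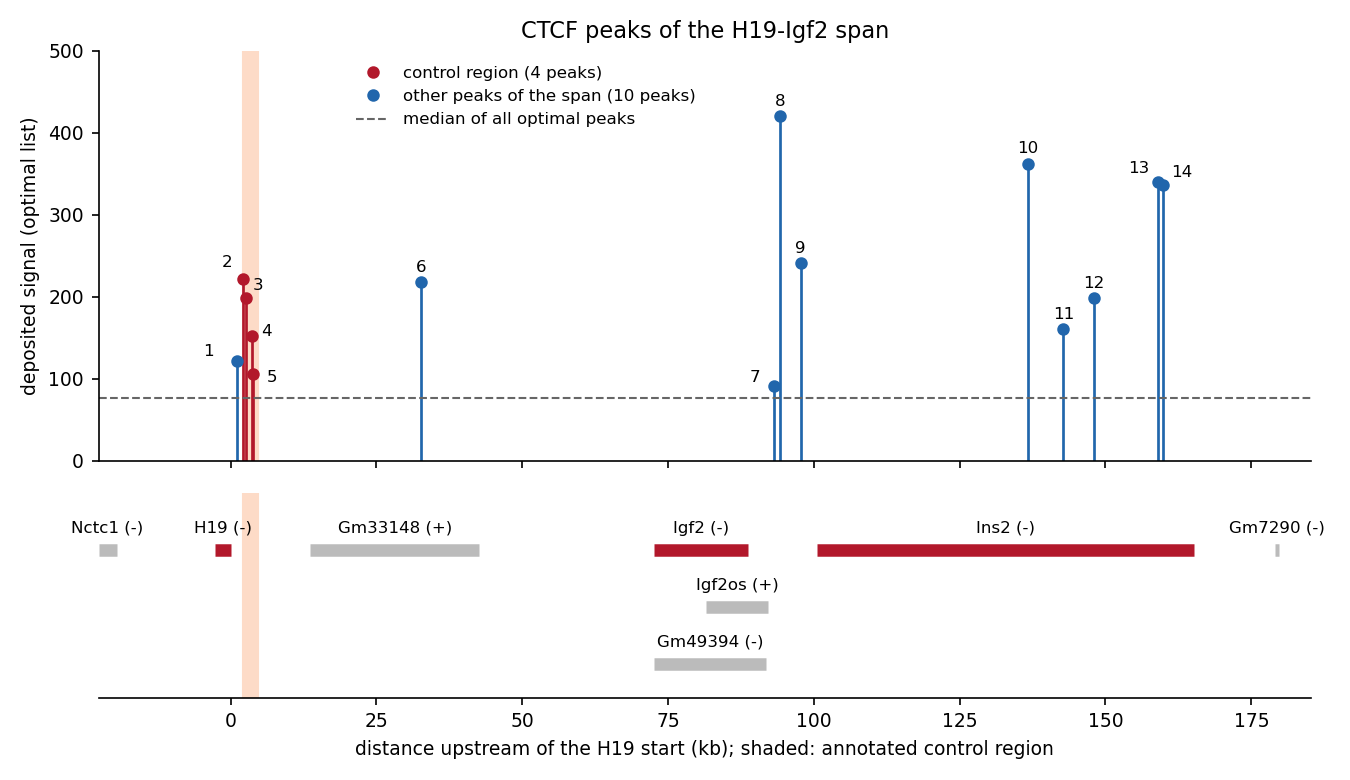
Deposited signal of the 14 optimal peaks (top, vertical axis) against distance upstream of the H19 start in kb, with gene models and their strands below, members in red, and the annotated control region shaded. The 4 control region peaks reach up to 221, peak 8 beyond Igf2 reaches 419.8, and every peak is above the dashed line at 76.5, the median of all optimal peaks.

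Peak 8 was the strongest, with a signal of 419.8 in the optimal list, 223 in replicate 1 and 198 in replicate 2. It lay at the 95.7 percentile of optimal peaks, between the outermost Igf2 start and Ins2. Peak 9, with an optimal signal of 241, had 144 in replicate 1 and 99.7 in replicate 2. Peak 7 was the weakest of the 14, with 91.0 in the optimal list, 57.9 in replicate 1 and 32.1 in replicate 2. It lay 1046 bp from peak 8, so the weakest and the strongest peak of the domain were neighbours. Peak 6, with 218 in the optimal list, 114 in replicate 1 and 105 in replicate 2, was close in strength to peak 2 at m4.

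Peaks 6 and 8 are the strongest between the control region and Igf2 and beyond Igf2, and their sequences are set out for comparison with m4 to m1. Both are 61 bp around the summit, on the strand of the motif, with the match in capitals. Peak 6 is chr7:142610720-142610780 on the plus strand and peak 8 is chr7:142672300-142672360 on the minus strand.
peak 6: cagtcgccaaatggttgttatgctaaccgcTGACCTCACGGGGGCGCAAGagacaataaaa
peak 8: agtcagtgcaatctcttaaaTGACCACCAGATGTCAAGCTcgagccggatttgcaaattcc

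The match of peak 6 held 2 CpG and scored 13.97 bits, while that of peak 8 held none and scored 15.79 bits. Peak 6 had its motif on the plus strand, opposite to all 4 words of the control region, and peaks 7, 8 and 9 had theirs on the minus strand.

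Peaks 10 to 14 lay between 136736 bp and 159822 bp upstream of the H19 start. Their signals in the optimal list were 362 for peak 10, 160.3 for peak 11, 198 for peak 12, 340.5 for peak 13 and 336 for peak 14. In replicate 1 they ranged from 92.8 to 186 and in replicate 2 from 66.9 to 179.6, with peak 11 the lowest in both. GENCODE vM21 places all 5 inside Ins2, because 1 of its transcripts reaches out to 142743381, whereas RefSeq places them in a separate noncoding gene, Gm39116. They are therefore not counted here as peaks of the insulin coding unit.

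The sequences of peaks 10 to 14 are shown because they resemble each other, which was seen after their values were known. Each line is 60 bp on the strand of the motif, with the best 20 bp word in capitals. Peak 10 is chr7:142714840-142714899 on the minus strand, peak 11 chr7:142720905-142720964 on the plus strand, peak 12 chr7:142726184-142726243 on the plus strand, peak 13 chr7:142737103-142737162 on the plus strand and peak 14 chr7:142737933-142737992 on the minus strand.
peak 10: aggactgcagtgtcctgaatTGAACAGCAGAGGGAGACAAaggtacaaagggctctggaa
peak 11: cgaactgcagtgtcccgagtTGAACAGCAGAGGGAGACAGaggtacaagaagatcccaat
peak 12: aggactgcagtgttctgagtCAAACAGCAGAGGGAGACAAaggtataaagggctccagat
peak 13: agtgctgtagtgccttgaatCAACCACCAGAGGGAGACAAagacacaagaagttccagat
peak 14: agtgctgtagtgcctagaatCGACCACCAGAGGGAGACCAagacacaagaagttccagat

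All 10 pairs among these 5 windows shared between 41 and 57 of 60 bases without gaps, and peaks 13 and 14 were the most alike, at 57. The other 81 pairs among the 14 peaks shared between 12 and 34 of 60 bases. At the control region, m4 and m3 shared 34 and m2 and m1 shared 32. The words of peaks 10 to 14, which were likewise chosen by the matrix, had the same base at 14 of 20 positions and held at most 1 CpG. Likeness in sequence did not go with likeness in signal in every pair. Peaks 13 and 14, the most alike, had signals of 340.5 and 336, while peaks 10 and 12, with 52 of 60 bases in common, had 362 and 198. Peak 12 was the only 1 of the 5 whose word missed the motif threshold, at 11.29 bits. Part of this sequence is marked as repeat in the reference genome. In a window reaching 50 bp to each side of the summit, the marked share was 25.7% at peak 10, 22.8% at peak 11 and 20.8% at peak 13. It was 0 at peaks 12 and 14.

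**Figure D3:**
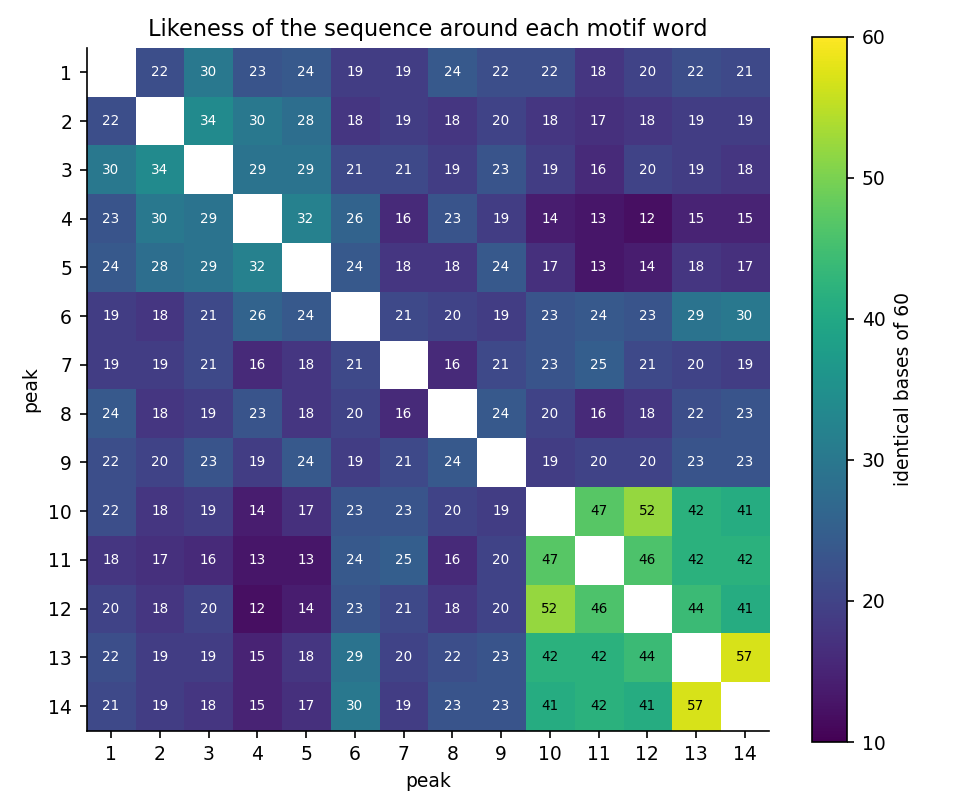
Number of identical bases, of 60, between the windows around the best motif word of every pair of the 14 peaks, as a grid with peak numbers on both axes and the colour scale at the right. Peaks 10 to 14 form a block with 41 to 57 identical bases, and no pair outside that block exceeds 34.

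Over the 14 peaks, 9 had a motif match at the threshold, or 64.3%, against 57.2% of all 68590 optimal peaks on chromosomes 1 to 19 and X and 1.06% of flanking windows 1 kb away. At this threshold the share in the domain was thus near that of the series. The 5 without a match were m4, m3, m2, m1 and peak 12. At the looser per-position p of 1e-04 all 14 had a match, against 78.7% of the series. At the stricter 1e-06 only 1 of the 14, peak 9, had a match, against 30.1% of the series. The count of 9, and its likeness to the series, thus rest on the threshold. Matches were on the plus strand in 3 peaks (6, 11 and 13) and on the minus strand in 6 (1, 7, 8, 9, 10 and 14). In the series 19572 were on the plus strand and 19691 on the minus strand, and 9 matches are too few to set the domain apart. Of the 9 matches 6 held no CpG, as did 62.0% of matches in the series.

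**Figure D4:**
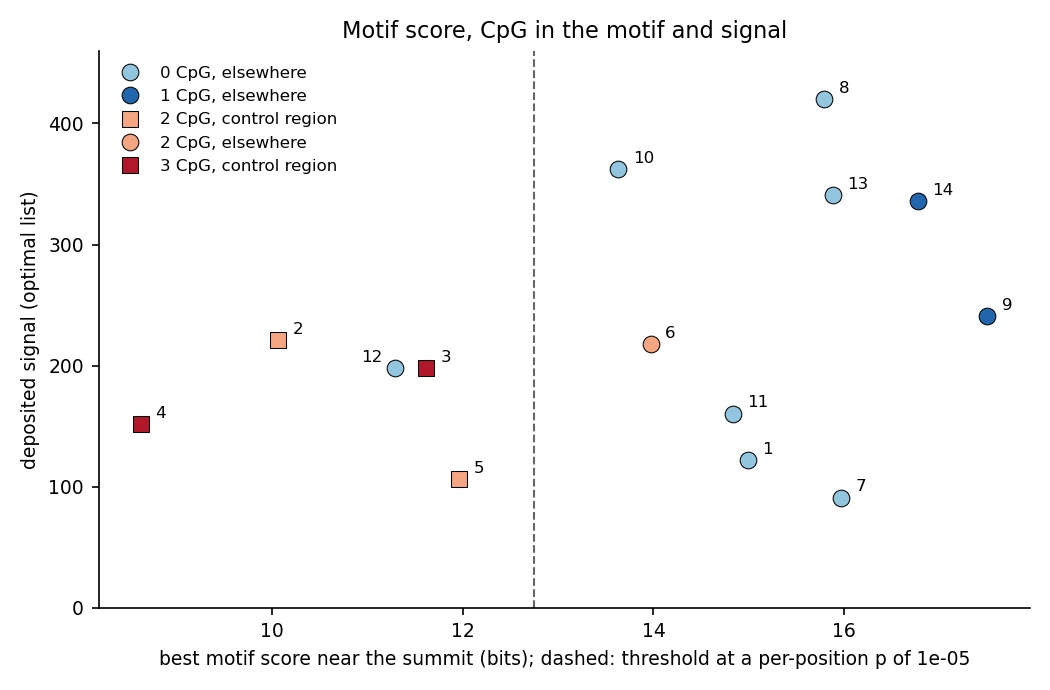
Deposited signal in the optimal list (vertical axis) against the score in bits of the best motif word near the summit, for the 14 peaks, coloured by CpG in the word, with squares for the control region and circles for the rest. The 4 control region peaks lie left of the dashed threshold at 12.75 bits with signals of 106 to 221, and peak 7, with a score of 15.97 bits, has the lowest signal, 91.0.

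The span held 20 motif matches at the threshold, wherever they lay, of which 9 had an optimal summit within 50 bp and 11 did not. On chromosome 7 as a whole 28.5% of 9112 matches had one. Of the 11 without an optimal summit, 9 had no summit of the list made from both replicates jointly (the joint list) either. The match with the highest score in the span, 17.74 bits, was among them. It lay 9696 bp upstream of the H19 start at chr7:142587839-142587858 on the plus strand, and the nearest summit of the optimal or joint list was 5839.5 bp away. A further 2 matches without an optimal summit lay in H19, 377 and 579 bp inside its start. The first of these had a summit of the joint list 42.5 bp away, with a signal of 6.94, that was found in neither replicate's list.

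No gene that starts in the span had an optimal summit within 1 kb of an annotated start, as 23.7% of all 53843 annotated genes and 43.4% of 21755 protein-coding genes had. For H19 the nearest summit was peak 1, 1131 bp from its start. For Igf2 it was peak 7, 4468 bp from its outermost start, and for the nearest annotated start of Ins2 it was peak 9, 3670 bp away with a signal of 241. Among the other genes, the nearest optimal summit was 1342 bp from the start of Gm49394, a coding gene model that overlaps Igf2, and 6146 bp from that of the antisense RNA Igf2os. It was 2127 bp away for the microRNA Mir675, 16288 bp for the microRNA Mir483 inside Igf2, 9735 bp for Gm33148 and 19887 bp for the pseudogene Gm7290. For the noncoding RNA Nctc1 it lay outside the span, 8463 bp from the start, with a signal of 67.1. The unnamed small RNAs Gm27483 and Gm27786 in H19 were 2421 and 1425 bp from the nearest summit. All of these nearest peaks were farther than 1 kb, and H19 came closest.

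Weak peaks over Igf2 were listed outside the optimal list. The conservative list held all 14 peaks and 1 more in the span, with its summit at 142658834 inside Igf2, 655 bp from 1 of its 9 annotated starts. Its signal was 23.6 in that list, 12.9 in replicate 1 and 9.39 in replicate 2. By the conservative list, therefore, 1 of the 3 members, Igf2, had a summit at a start, set against 22.8% of annotated genes and 41.8% of protein-coding genes in that list. A second weak summit of the joint list lay at 142659361, 128 bp from another Igf2 start, with 17.2 in the joint list, 11.3 in replicate 1 and 5.71 in replicate 2. In all, the joint list held 22 peaks of the span that the optimal list did not, with signals of 6.82 to 23.6, and only these 2 of them were found in both replicates' lists. At the Ins2 start, a joint summit 31 bp away had a signal of 10.4, with 5.97 in replicate 1 and none listed in replicate 2.

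Beyond the 3′ end of H19 lie the tissue enhancers that H19 and Igf2 are known to share. RefSeq annotates an H19/Igf2 enhancer region at chr7:142547916-142573912, which starts outside the span. None of its 12 annotated enhancers and conserved segments, 9 of them inside the span, held an optimal summit. These elements were 228 to 5001 bp long, and chromosome 7 as a whole held 30.5 optimal peaks per Mb. A count of none in so little sequence therefore says little about them. The region held 1 optimal peak, between such segments, 5396 bp outside the span and 28010 bp from the H19 start, with its summit at 142550133. Its signal was 67.1 in the optimal list, 36.9 in replicate 1 and 28.9 in replicate 2, below every peak of the span.

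All 14 peaks were in both replicates' lists and in the conservative list. In the series 67101 of 68590 optimal peaks had values in both replicates, so presence in both lists did not set the domain apart. The conservative list held 65481 peaks on the same chromosomes, but the share of optimal peaks found in it was not counted. Signal was higher in replicate 1 than in replicate 2 for 13 of the 14 peaks, the exception being m3, against 86.2% of peaks in the series. The log2 ratio of replicate 1 over replicate 2 had a median of 0.24 in the domain (SD 0.23, n = 14 peaks), against 0.30 in the series (SD 0.46, n = 67101 peaks). The SD was 0.29 in the Kcnq1-Cdkn1c domain, with a median signal of 211, and 0.61 in the Dlk1-Meg3 domain, with 46.3. The narrow spread is thus not particular to this domain, and series peaks of like strength were not compared. By percentile within each replicate, which removes a shared difference of scale, 8 of the 14 were higher in replicate 1. Of the 14 ratios, 13 lay within 1 SD of the series' median, but the share of all optimal peaks in that band was not counted. Peak 7 lay outside, with a log2 ratio of 0.85 at the 87.2 percentile. Peaks 9 and 11 came next, at 0.53 and 0.47, and the 4 control region peaks ranged from -0.03 to 0.30.

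**Figure D5:**
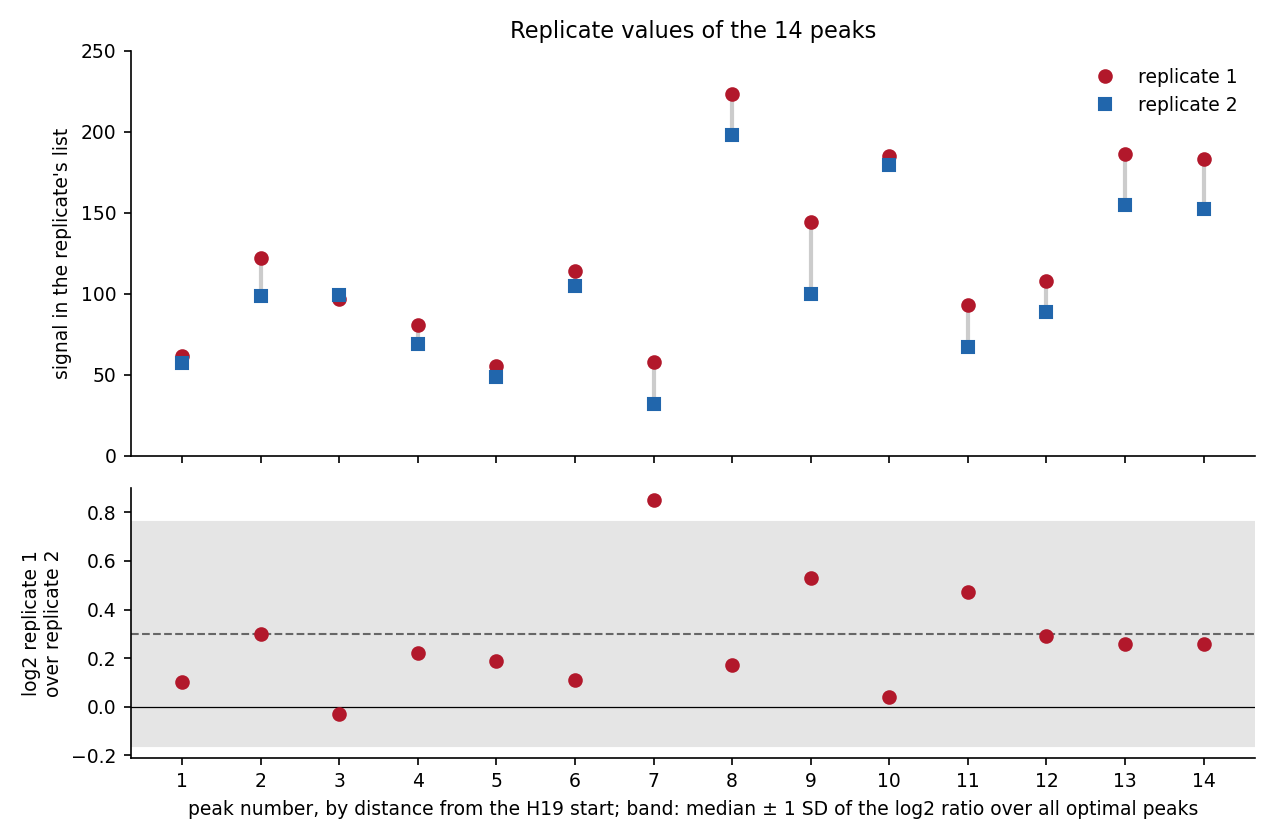
Signal of each of the 14 peaks in replicate 1 (circles) and replicate 2 (squares) on the vertical axis of the upper panel, and the log2 ratio of replicate 1 over replicate 2 in the lower panel, where the band is the median ± 1 SD over all optimal peaks. Peak 7, at 0.85, is the one point above the band, and m3 (peak 3), at -0.03, is the one point below 0.

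The peaks of the domain were all in the stronger part of the series. The median signal of the 14 was 208, with a range of 91.0 to 419.8, and all 14 exceeded the series' median of 76.5. Density was 67.4 peaks per Mb in the span, 30.5 on chromosome 7 and 26.0 over chromosomes 1 to 19 and X. The neighbouring imprinted Kcnq1-Cdkn1c domain held 14 peaks too, at 35.5 per Mb and a median signal of 211. The Dlk1-Meg3 domain on chromosome 12 held 14 at 88.1 per Mb and a median signal of 46.3. The deposited -log10 q value was 5.18 for every peak of the span, the highest in the list, which 96.0% of the series reached, so it ranked none of them.

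Among 19 listed neighbours of the domain on distal chromosome 7, 8 had an optimal summit within 1 kb of a start. The strongest were at Mrpl23, a mitochondrial ribosomal protein gene near H19, with a signal of 277, at the ion channel gene Trpm5 with 235, at the synaptotagmin gene Syt8 with 224 and at the placental transcription factor gene Ascl2 with 129. Cdkn1c, an imprinted cell cycle inhibitor, had none, its nearest summit being 3034 bp away with a signal of 358, and the lysosomal protease gene Ctsd had none within 26886 bp.

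Of 18 listed genes of insulin and insulin-like growth factor signalling, 9 had such a peak. They included the binding protein genes Igfbp4, with a signal of 320.0, and Igfbp7, with 138, the adaptor gene Irs1 with 91.2 and the receptor gene Igf1r with 52.3. The RNA-binding protein genes Igf2bp1 and Igf2bp3 had none, with the nearest summit at 1365 and 5684 bp. Of 10 listed genes for factors that set or keep imprints, 4 had such a peak. These were the DNA methyltransferase genes Dnmt3a with 272 and Dnmt1 with 129, the corepressor gene Trim28 with 148 and Ctcf itself with 55.2. Ctcfl, the germline paralogue of Ctcf, and Dnmt3l, a methyltransferase cofactor, had none, with the nearest summit at 5548 and 1271 bp. None of the 3 counts was far from the 43.4% of protein-coding genes, and none of H19, Igf2 and Ins2 had such a peak.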

How the data were processed

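CTCF ChIP-seq peaks of 2 replicates were used. The authors deposited 5 lists in narrowPeak format on mm10, per the deposited text notes: 1 per replicate, 1 on both jointly, and 2 (optimal, conservative) thresholded by the irreproducible discovery rate, whose threshold, like the peak caller, aligner and depth, is not given in the sources used here. Column 7 holds the deposited signal, column 9 the deposited -log10 q value. Values are not read counts, so no count model or interval was used. Summits are column 2 plus column 10, printed 1-based. A replicate's peak was matched within 100 bp. A 20 bp CTCF matrix was made from the strongest 2000 peaks on even-numbered chromosomes and used on chromosome 7. For series shares, even-numbered chromosomes were scored with a second matrix, made likewise from the other chromosomes. The method of making a matrix, not the CTCF matrix itself, was tested on simulated data with a made-up motif. Gene starts came from GENCODE vM21, elements and sequence from RefSeq GRCm38.p6. Python 3.11.15, numpy 2.4.6 and pandas 2.3.3 were used. Members and gene lists were chosen with earlier results of these data known. Named genes were the members, all genes starting in the span, and per list up to 4 with the strongest promoter peak and the first 2 by name without one. Leaving out a replicate used as many of the other's strongest peaks as the optimal list holds. Other alternatives changed the list, motif threshold, match distance, promoter width and span.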

Additional observations from a re-analysis of the deposited data

How the results depend on the processing

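The span held 14 to 15 peaks under every alternative tried, namely the conservative list, optimal peaks of the stronger 50%, the strongest 68603 peaks of either replicate alone and the span without its 20 kb flanks. The stronger 50% had to hold all 14, the control region peaks among them, because each exceeded the series' median. The control region held 4, or 5 when widened to 1 to 5 kb upstream. By percentile, 8 rather than 13 peaks were higher in replicate 1, and the other ways of matching gave 13. Motif matches numbered 14 at a per-position p of 1e-04 and 1 at 1e-06, against 78.7% and 30.1% of all optimal peaks, and 9 otherwise. With starts widened to 5 kb, peaks were counted at 3 of the 3 members, 15 distal chromosome 7 neighbours, 14 insulin and IGF genes and 7 imprint factors. At that width 41.2% of all annotated genes and 61.3% of protein-coding genes had one, so the share rose for genes in general. The conservative list gave 1 member, Igf2, against 41.8% of protein-coding genes. The stronger 50% gave 5 neighbours and 3 insulin and IGF genes, against 12.6% of all annotated genes and 23.1% of protein-coding genes. Outermost starts alone gave 2 imprint factors, against 20.2% and 35.3%. The share of genes in general thus fell in these 2 settings too. The replicates' whole lists of 300000 peaks held 36 span peaks in replicate 1 and 31 in replicate 2. Leaving out either replicate, with the other's list kept to its strongest 68603 peaks, gave 14 and 14 span peaks, 4 and 4 control region peaks, 9 and 9 motif matches, 0 and 0 members, 8 to 9 neighbours, 8 to 10 insulin and IGF genes and 4 and 4 imprint factors. Of protein-coding genes, 44.0% then had a peak at a start without replicate 1 and 44.1% without replicate 2. Apart from the thresholds and distances changed, the cause was not tested. Depth is unknown, alleles were not separated, and both replicates may come from 1 tissue sample. No paired analysis was possible because there was 1 group.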

Other observations

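The sequence shared by peaks 10 to 14 also occurred beyond the domain. This search was chosen after the sequences were seen. On chromosome 7, 20 places shared at least 40 of 60 bases, without gaps, with the window of 1 of these peaks, and 5 of them were the peaks themselves. Of the 15 others, 4 had an optimal summit within 100 bp. The nearest 2 lay beyond the far end of the span, by 36228 and 87453 bp, and both had one. The first, at chr7:142799609-142799668 on the plus strand, matched the window of peak 11 at 55 of 60 bases and had a signal of 297 in the optimal list, 156 in replicate 1 and 140.4 in replicate 2. Its summit, at 142799633, was the first listed after peak 14. The second, at chr7:142850834-142850893 on the minus strand, matched that of peak 13 at 52 bases and had a signal of 275 in the optimal list, 149 in replicate 1 and 127 in replicate 2. Of the 13 places before the span, 2 had an optimal summit, with signals of 302 and 42.1, and 11 had none. The 2 shared 42 and 48 of 60 bases with a peak's window, and the 11 shared 43 to 48. Most of the 11 lay in 1 run, from 38419756 to 41199639, and were most like peak 10. Whether reads can be placed uniquely in that run, or at peaks 10 to 14, was not tested.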
